A study of Mus musculus with 12 samples.

Results

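The 49 genes described here encode the ATR checkpoint and the wider DNA damage response: the sensor kinases, the proteins that load and switch on ATR, the checkpoint kinases, the proteins that mark and repair DNA breaks, and p53 with its targets. They were chosen by symbol, and all 49 were found among the 55401 gene IDs of the deposited count table and passed the filter on low counts, which left 21958 genes for testing. Each library was made from the medial prefrontal cortex of male mice at 2 weeks of extinction of a conditioned place preference, that is, while the preference for a place paired with a drug is unlearned. Knockdown-morphine mice received an adeno-associated virus against 5-HT6R, the serotonin receptor encoded by Htr6, and morphine (replicates 1, 2, 3 and 5). Scramble-morphine mice received a scrambled control virus and morphine (replicates 1, 3, 4 and 5), and scramble-saline mice the scrambled virus and saline (replicates 2, 3, 4 and 5). All 3 groups therefore carried a virus and went through extinction, and none of the 12 libraries analysed here combined the knockdown virus with saline. The labels name neither the promoter nor the cell type that drives the virus, and do not say whether each library is 1 animal, so p-values measure the spread between libraries, which may be technical.

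ATR is a kinase that is drawn, through its partner ATRIP, to single-stranded DNA coated by the RPA complex, as forms at stalled replication forks and resected breaks. It is switched on by TOPBP1 or ETAA1 and passes the signal to CHK1, which holds back the CDC25 phosphatases and so the cell cycle. ATM and DNA-PK answer to DNA breaks, and p53 carries the signal into transcription of arrest, repair and cell death genes. Most neurons of the adult cortex do not divide, and several of these genes are known above all from dividing cells. The study's title sets ATR beside 5-HT6R and primary cilia in memory extinction, and the comparisons below give the RNA of these genes only, not the amount or activity of the kinases.

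Library totals lay between 41483220 and 65739423 counts. The targeted gene does not check the labels: Htr6 had 4.49, 5.30, 3.82 and 5.46 CPM (counts per 1000000 counts of a library, after TMM scaling) in knockdown-morphine libraries, 5.30, 5.16, 4.82 and 5.58 in scramble-morphine and 5.45, 6.92, 4.35 and 7.98 in scramble-saline libraries. The groups overlap, and knockdown-morphine minus scramble-morphine was -0.13 on the log2 scale (SE 0.18, 95% interval -0.52 to 0.26; edgeR adjusted p = 0.823). The share of counts at CT010467.1, a ribosomal RNA locus, was 6.46 ± 2.16% in knockdown-morphine, 2.71 ± 0.292% in scramble-morphine and 4.57 ± 0.839% in scramble-saline libraries (SD, n = 4 each). The summed level of 5 neuron markers was 4767 to 5701 CPM in knockdown-morphine, 4897 to 5447 in scramble-morphine and 5096 to 5510 in scramble-saline libraries. For 5 oligodendrocyte markers it was 1054 to 1811 CPM in knockdown-morphine, 1640 to 2265 in scramble-morphine and 1567 to 2058 in scramble-saline libraries. For 5 microglia markers it was 283 to 405, 333 to 489 and 338 to 431 CPM, for 5 endothelium markers 187 to 256, 171 to 202 and 185 to 248 CPM, and for 5 mural and meningeal markers 168 to 250, 147 to 186 and 141 to 179 CPM, in knockdown-morphine, scramble-morphine and scramble-saline libraries. The median log2 difference of knockdown-morphine minus scramble-morphine was 0.06 for the neuron list, -0.30 for oligodendrocyte, -0.25 for microglia, 0.23 for endothelium and 0.37 for mural and meningeal markers. For knockdown-morphine minus scramble-saline it was 0.04 for the neuron list, -0.24 for oligodendrocyte, -0.24 for microglia, 0.11 for endothelium and 0.80 for mural and meningeal markers. For scramble-morphine minus scramble-saline it was -0.01, 0.03, 0.00, -0.11 and 0.18 for the same lists in that order. For 3 oligodendrocyte precursor markers the summed level was 85.0 to 98.6 CPM in knockdown-morphine, 76.1 to 85.0 in scramble-morphine and 74.1 to 85.3 in scramble-saline libraries. Their median was 0.18 for knockdown-morphine minus scramble-morphine and 0.15 for knockdown-morphine minus scramble-saline. Lists of cortical layer, astrocyte, blood, striatum, and ependyma and choroid markers were also read. Their medians for knockdown-morphine minus scramble-morphine were -0.12, -0.01, 0.11, 0.16 and -0.66 in that order. For scramble-morphine minus scramble-saline they were -0.06, 0.19, -0.75, 0.12 and 0.21. None of the markers of these lists passed edgeR's adjusted threshold in the 3 comparisons. All except Ttr, of the ependyma and choroid list, were detected in every library. The part of these differences in any result below was not tested. In bulk tissue, fewer cells of a type and less RNA per cell cannot be told apart.

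None of the 49 genes passed an adjusted p of 0.05 in any of the 3 comparisons. This held with edgeR and also with DESeq2 and limma voom. Summed over the 49 genes, the level was 932 ± 17.2 CPM in knockdown-morphine, 937 ± 12.1 in scramble-morphine and 924 ± 13.5 in scramble-saline libraries (SD, n = 4 each). At an unadjusted p under 0.05 stood 5, 1 and 4 members in edgeR, 5, 1 and 4 in DESeq2 and 5, 1 and 3 in limma voom, for knockdown-morphine against scramble-morphine, scramble-morphine against scramble-saline and knockdown-morphine against scramble-saline libraries. The 3 comparisons share libraries and are not independent of each other. The median biological coefficient of variation was 14.2% for the 49 genes and 18.2% for all genes tested. The highest library stood a median of 1.52 times over the lowest for the 49 genes and 1.77 times for all genes tested. For 22 of the 49 that ratio was under 1.5, and for 3 it was over 3, namely Clspn at 7.53, Fanci at 5.20 and Chek2 at 3.38. These 3 are among the lowest of the set, with as few as 8 counts of Clspn, 16 of Fanci and 21 of Chek2 in a library. Neither the coefficient of variation nor the ratio was compared with genes matched to the 49 in level.

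To compare genes with each other, levels were divided by transcript length and given as TPM among protein-coding genes, as the mean of 12 libraries. The 49 genes had a median of 12.5 TPM, against 20.1 TPM for all protein-coding genes tested, and 39 of them stood at 5 TPM or more. The most abundant was Parp1 at 75.7 TPM, the polymerase that marks DNA breaks with poly(ADP-ribose), followed by the p53 target Ccng1 at 67.3 and the histone variant gene H2afx at 51.6 TPM. The order depends on the length used: with all annotated exons merged, Ccng1 stood at 91.0 and Parp1 at 74.9 TPM. At the other end, Clspn, the adaptor between ATR and CHK1, stood at 0.283 TPM, the recombination gene Brca1 at 0.673 and Fanci, the partner of FANCD2 in crosslink repair, at 0.752 TPM. All 3 are best known from dividing cells. With merged exons Palb2, at 0.717 TPM, stood below Fanci at 0.818 TPM. Of 8 markers of dividing cells, Cdk1, Ccnb1, Aurkb, Bub1 and Cenpf were at 0 in at least 1 library, and Mki67 stood at 1.02 to 3.43 CPM. The summed level of these 8 markers was 2.76 to 8.83 CPM in knockdown-morphine, 3.06 to 6.14 in scramble-morphine and 4.36 to 6.48 in scramble-saline libraries, so the ranges overlap. The 7 of them that were tested had a median difference of 1.06 for knockdown-morphine minus scramble-morphine, -0.30 for scramble-morphine minus scramble-saline and 0.62 for knockdown-morphine minus scramble-saline, with 0 passing edgeR's adjusted threshold.

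**Figure D1:**
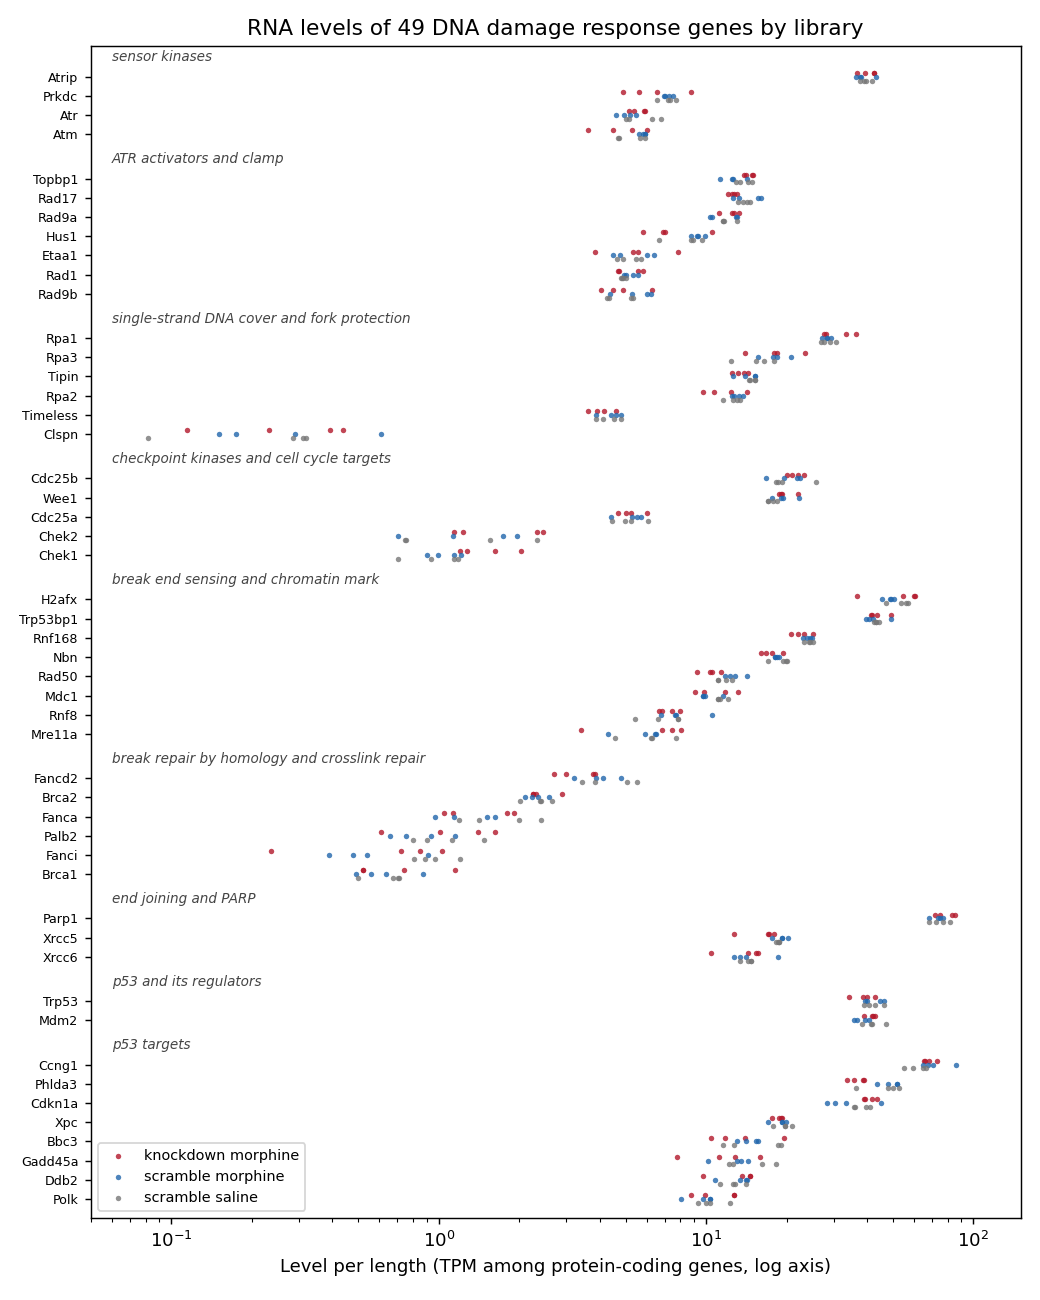
RNA level per length (TPM among protein-coding genes, log axis) of the 49 genes in each of 12 libraries, with genes grouped by role and points coloured by group. Levels run from 0.283 TPM for Clspn to 75.7 TPM for Parp1 as means of 12 libraries, and for most genes the 3 groups lie over each other.

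Atr itself lies on chromosome 9 at 95857597 to 95951781 on the plus strand (mm10). It stood at 5.48 TPM, below the median of 20.1 TPM of the protein-coding genes tested. Among all 21897 protein-coding genes, tested or not, that level was at or above 46.4%, or 39.8% when all annotated exons were merged for the length. Its level was 14.5, 13.7, 15.2 and 13.3 CPM in knockdown-morphine libraries, 13.2, 13.9, 12.6 and 11.9 in scramble-morphine and 17.2, 13.0, 15.7 and 12.4 in scramble-saline libraries. The groups overlap throughout, and the scramble-saline libraries hold the highest value and spread widest. Knockdown-morphine minus scramble-morphine was 0.13 (SE 0.11, 95% interval -0.10 to 0.37; edgeR adjusted p = 0.668), so the interval lies inside 1.5-fold in either direction (a log2 of 0.58). Scramble-morphine minus scramble-saline was -0.18 (-0.41 to 0.06; adjusted p = 0.999), and knockdown-morphine minus scramble-saline was -0.04 (-0.28 to 0.19; adjusted p = 0.944), or 0.04 without scramble-saline replicate 2. Here and below, a range in brackets after a fitted log2 difference is its 95% interval. Atr shares 3.07% or less of its exon bases with each of 3 antisense or small RNA genes.

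The stretch before the transcription start is shown for 4 members: Atr as the kinase the set is named for, Topbp1 as its activator, and Phlda3 and Ccng1 as the p53 targets with the smallest p-values. Sequences are from RefSeq (GRCm38.p6), 5′ to 3′ on the strand of the gene, up to 250 bases and without bases inside the annotated gene. Capitals mark matches to an E2F site, the CHR element (a cell cycle element) or its variant, or a p53 half-site. The stretches are chr9:95857347-95857596 on the plus strand for Atr, chr9:103305077-103305214 on the plus strand for Topbp1, chr1:135765835-135766084 on the plus strand for Phlda3 and chr11:40755312-40755536 on the minus strand for Ccng1.
Atr: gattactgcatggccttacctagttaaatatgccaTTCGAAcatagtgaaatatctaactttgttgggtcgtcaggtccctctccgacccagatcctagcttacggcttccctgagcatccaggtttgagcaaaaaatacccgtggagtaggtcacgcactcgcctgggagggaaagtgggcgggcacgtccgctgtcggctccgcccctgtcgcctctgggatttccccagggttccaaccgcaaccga
Topbp1: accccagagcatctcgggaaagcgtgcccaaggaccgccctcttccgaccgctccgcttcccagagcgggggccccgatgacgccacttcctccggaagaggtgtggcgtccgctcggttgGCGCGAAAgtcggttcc
Phlda3: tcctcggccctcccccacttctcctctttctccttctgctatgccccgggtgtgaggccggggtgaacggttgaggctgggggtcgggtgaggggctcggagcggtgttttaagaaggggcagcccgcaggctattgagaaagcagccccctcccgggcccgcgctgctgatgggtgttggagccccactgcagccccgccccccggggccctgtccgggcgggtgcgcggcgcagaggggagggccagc
Ccng1: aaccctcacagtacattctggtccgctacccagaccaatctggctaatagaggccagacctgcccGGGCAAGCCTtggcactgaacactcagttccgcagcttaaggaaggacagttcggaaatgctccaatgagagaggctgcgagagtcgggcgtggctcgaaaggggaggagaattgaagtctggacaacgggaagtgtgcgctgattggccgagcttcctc

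The full 250 bases before the RefSeq start, which for Topbp1 and Ccng1 run past the stretch printed, were found for 39 of the 49 genes and searched on both strands for 7 patterns, beside the same 250 bases of 27025 genes (a gene with several starts counts where any has a match). The E2F pattern (TTTCCCGC, TTTCGCGC, TTTGCCGC or TTTGGCGC) was in 6 of 39, or 15.4%, against 2.16% of all genes. The 6 are Brca2, Cdc25a, Chek2, Mdc1, Topbp1 and Xrcc6. A p53 half-site was in 7 of 39, or 17.9%, against 8.20%, and the 7 are Ccng1, Cdkn1a, Fanca, Gadd45a, Mdm2, Polk and Trp53. The CCAAT box was in 56.4% against 37.5%. The CHR element TTTGAA was in 5.13% against 18.3%, and in 7.69% against 19.6% when the variant TTCGAA, as in Atr, was added. The NRF1 motif was in 0% against 0.877% and the CRE in 2.56% against 1.77%. These are matches of letters and do not show that a factor binds. The 27025 genes were not matched to the members in base content or level, and the members include genes listed as p53 targets.

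In knockdown-morphine against scramble-morphine libraries, the comparison that asks what the virus against 5-HT6R changes under morphine, the 49 genes were evenly divided and close to 0. The fitted difference was above 0 for 24 and below 0 for 25, with a median of -0.01 (all genes tested: 0.00) and a range of -0.41 to 0.52. No member passed edgeR's adjusted threshold, and neither did any other gene (0% of 21958 genes). At an unadjusted p under 0.05 stood 5 of 49 members, 10.2%, against 12% of all genes. The libraries of the groups did not overlap for 2 of 49, 4.08%, against 5.85% of all genes. DESeq2 called 0.828% of the genes to which it gave an adjusted p and limma voom 0%, with 0 members each; the smallest adjusted p of a member was that of Rad50, 0.0538 in DESeq2 and 0.286 in limma voom. The 95% interval lay within 1.5-fold for 38 members, 77.6%, against 52.7% of all genes. For the 189 other DNA damage response genes described further below it did so for 74.1%, close to the members. Here and in the other comparisons, all genes tested include rows of low count and were not matched to the members in level.

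**Figure D2:**
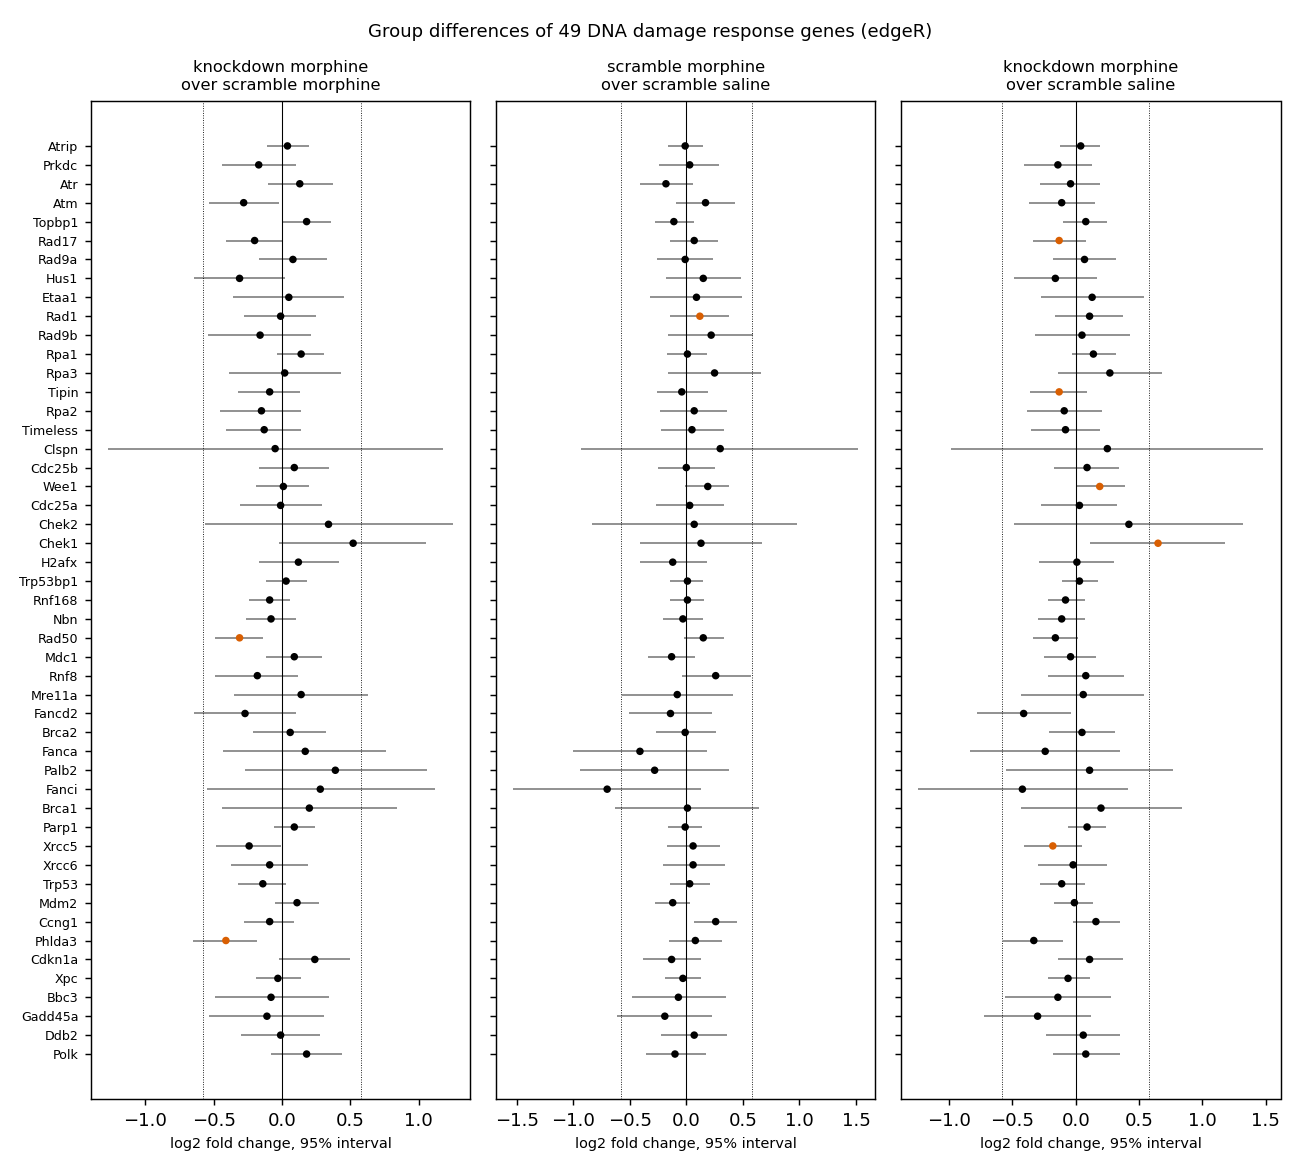
Fitted log2 fold change (points) with 95% interval (lines) of the 49 genes in the 3 comparisons, edgeR, genes ordered by role from the sensor kinases at the top to p53 targets at the bottom. Orange points mark genes whose 4 libraries of the first group do not overlap the 4 of the second, and dotted lines mark 1.5-fold; the intervals of 38, 39 and 39 genes lie inside them in the panels from left to right.

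Rad50, which with Mre11a and Nbn forms the complex that binds broken DNA ends, had the smallest p of the set. It had 16.5, 15.7, 16.7 and 17.8 CPM in knockdown-morphine libraries, 19.0, 20.8, 20.0 and 23.1 in scramble-morphine and 19.1, 17.9, 17.8 and 19.8 in scramble-saline libraries. All knockdown-morphine libraries lie below all scramble-morphine libraries, and the scramble-saline libraries overlap both at their edges. Knockdown-morphine minus scramble-morphine was -0.31 (SE 0.08, 95% interval -0.49 to -0.14; edgeR adjusted p = 0.264). For its partners the same difference was 0.14 (-0.35 to 0.63) for Mre11a, the nuclease, and -0.08 (-0.26 to 0.10) for Nbn, the regulatory subunit; the difference between partners was not tested. Against saline, Rad50 stood at 0.15 (-0.02 to 0.33) for scramble-morphine and -0.16 (-0.34 to 0.02) for knockdown-morphine.

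Phlda3, a p53 target that restrains AKT signalling, was the other member whose groups did not overlap. It had 15.6, 18.4, 15.3 and 16.8 CPM in knockdown-morphine libraries, 21.6, 23.4, 23.4 and 19.8 in scramble-morphine and 23.6, 21.5, 16.3 and 21.9 in scramble-saline libraries. Only scramble-saline replicate 4 reaches down into the knockdown-morphine range. The difference was -0.41 against scramble-morphine (SE 0.11, 95% interval -0.65 to -0.18; edgeR adjusted p = 0.264) and -0.33 against scramble-saline (-0.57 to -0.10; adjusted p = 0.378). Both comparisons use the same knockdown-morphine libraries.

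Atm, the kinase that answers to DNA breaks, had 15.9, 11.6, 14.0 and 17.9 CPM in knockdown-morphine libraries, 17.9, 17.4, 18.4 and 18.3 in scramble-morphine and 17.4, 14.5, 14.3 and 17.8 in scramble-saline libraries. The knockdown-morphine values spread widely, and replicate 5 reaches the scramble-morphine range (-0.28, SE 0.12, 95% interval -0.53 to -0.02; edgeR adjusted p = 0.387). Xrcc5, which encodes the larger Ku subunit of end joining, had 9.95, 14.3, 13.9 and 13.9 CPM in knockdown-morphine, 16.3, 14.2, 15.5 and 15.6 in scramble-morphine and 15.0, 14.6, 14.8 and 14.4 in scramble-saline libraries. Knockdown-morphine replicate 1 stands apart at 9.95 CPM, and that library also had the highest share at the ribosomal RNA locus, 9.38%. With that share in the model the difference of -0.24 (SE 0.11, edgeR adjusted p = 0.393) became 0.08. The share was 4.57 to 9.38% in knockdown-morphine and 2.38 to 3.04% in scramble-morphine libraries. Since these ranges do not overlap, the share and the group cannot be told apart, and the part of the share in this difference was not tested. Topbp1, the activator of ATR, was the member of the 5 with the higher knockdown-morphine level, at 23.9, 24.1, 24.7 and 22.0 CPM, against 20.6, 20.5, 18.7 and 23.5 CPM in scramble-morphine and 21.9, 21, 23.1 and 23.7 CPM in scramble-saline libraries. Scramble-morphine replicate 5 lies inside the knockdown-morphine range (0.18, SE 0.08, 95% interval 0.01 to 0.36; edgeR adjusted p = 0.395).

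The count of 5 members at an unadjusted p under 0.05 depends on the fit and on which libraries are used. With the ribosomal RNA share in the model it was 2, Fanca and Phlda3, against 5.07% of all genes. As that share does not overlap between knockdown-morphine and scramble-morphine libraries, share and group cannot be told apart. In that fit Rad50 stood at -0.29, Atm at -0.34, Topbp1 at 0.18 and Phlda3 at -0.53, all with an edgeR adjusted p of 0.941. With library totals alone it was 7, against 15.9% of all genes, and with the replicate block 7, against 16.5%. It was 3 with upper-quartile scaling or the compared groups alone, against 11.8 and 11.1% of all genes. Without knockdown-morphine replicate 5 it was 10 of 49, or 20.4%, against 18.5% of all genes, with Rad50 at an edgeR adjusted p of 0.0576. Without scramble-morphine replicate 4 it was 2, Rad50 and Phlda3, or 4.08%, against 10.1% of all genes. It was 3 without knockdown-morphine replicate 3, against 8.74% of all genes. It was also 3 without scramble-morphine replicate 1 or 5, against 9.94 and 9.57% of all genes.

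**Figure D3:**
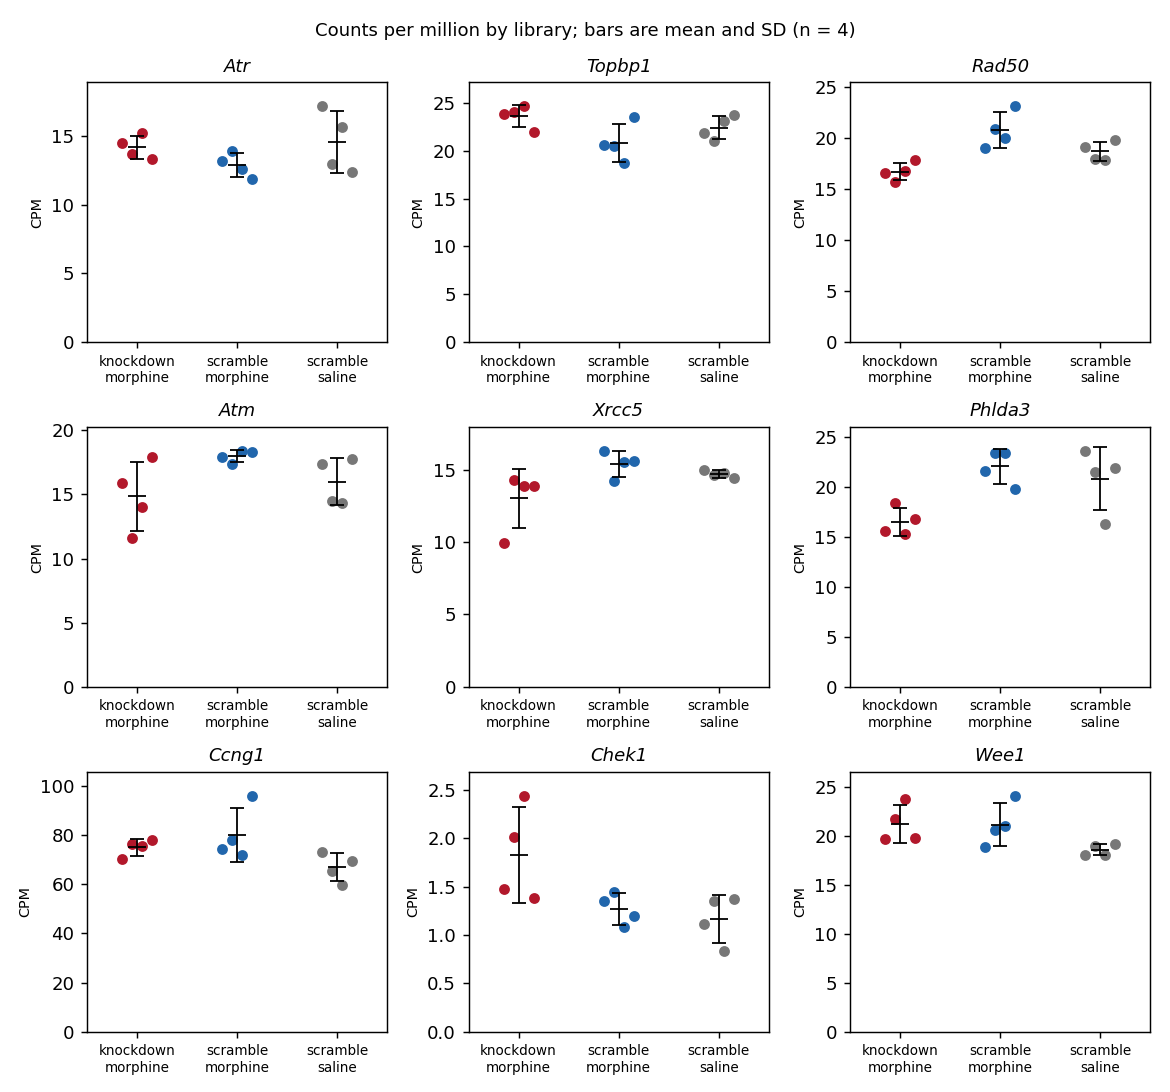
CPM of 9 named genes in each library, with the mean and SD of each group (n = 4) as bars and the axis starting at 0. Knockdown-morphine libraries of Rad50 and Phlda3 lie below all scramble-morphine libraries, and the groups overlap for Atr.

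Among the other sensor kinases, Atrip, the partner of ATR, had the highest level of its role at 39.5 TPM and differed by 0.04 (-0.11 to 0.20) between knockdown-morphine and scramble-morphine libraries, though 16.0% of its exon bases are shared on the same strand with Trex1. Prkdc, the catalytic subunit of DNA-PK, ranged from 20.3 to 33.8 CPM in knockdown-morphine libraries and from 27.8 to 30.1 in scramble-morphine libraries (-0.17, -0.44 to 0.10). The other ATR activator, Etaa1, differed by 0.05 (-0.36 to 0.45).

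The clamp that is loaded at damaged sites is made of RAD9, RAD1 and HUS1, and RAD17 is part of its loader. Rad17 had 11.0, 11.3, 11.3 and 11.3 CPM in knockdown-morphine, 11.2, 14.0, 14.4 and 12 in scramble-morphine and 12.6, 11.7, 12.1 and 12.7 in scramble-saline libraries, so its knockdown-morphine libraries lie at the bottom of the range (-0.20 against scramble-morphine, -0.41 to 0.01). Hus1 was 14.9 CPM in knockdown-morphine replicate 5 and 8.51 to 10.7 in the other knockdown-morphine libraries, against 12.9 to 14.4 in scramble-morphine libraries (-0.31, -0.64 to 0.02). Rad1 differed by -0.01 (-0.28 to 0.25).

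Rad9a and Rad9b encode paralogues of the RAD9 subunit. Rad9a had 8.47, 7.68, 8.25 and 8.04 CPM in knockdown-morphine, 8.48, 6.78, 6.89 and 8.52 in scramble-morphine and 7.54, 7.57, 8.42 and 7.40 in scramble-saline libraries. Rad9b had 2.94, 3.48, 3.65 and 4.54 CPM in knockdown-morphine, 4.63, 4.52, 3.27 and 3.95 in scramble-morphine and 3.88, 3.21, 3.13 and 3.87 in scramble-saline libraries. Neither separates the groups, with differences between knockdown-morphine and scramble-morphine libraries of 0.08 (-0.17 to 0.33) for Rad9a and -0.16 (-0.54 to 0.21) for Rad9b. Rad9b shares 23.2% of its exon bases with Pptc7 on the opposite strand, and since the use of strand in counting is not given in the sources used here, reads of such pairs cannot be told apart. The same holds for exon bases shared on the opposite strand by Ddb2 (23.8%), Gadd45a (19.1%), Fanci (16.0%), Trp53bp1 (15.0%), Fanca and H2afx (each over 10%). Rnf8 shares 13.2% of its exon bases with Gm28043 on the same strand, where strand could not separate the reads.

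The RPA complex covers single-stranded DNA, and Timeless, Tipin and Clspn guard the fork and pass the signal of ATR on. Rpa1, the large subunit, was the most abundant of the role at 29.4 TPM and differed by 0.14 between knockdown-morphine and scramble-morphine libraries (-0.04 to 0.31). Rpa2 and Rpa3 differed by -0.15 (-0.45 to 0.14) and 0.02 (-0.39 to 0.43). Timeless differed by -0.13 (-0.41 to 0.14) and its partner Tipin by -0.09 (-0.32 to 0.13). Clspn, at 0.182 to 0.721 CPM in knockdown-morphine and 0.240 to 0.963 CPM in scramble-morphine libraries, was too low to bound: its interval ran from -1.27 to 1.18.

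Of the checkpoint kinases, Chek1 encodes CHK1, the main target of ATR, and Chek2 encodes CHK2, the main target of ATM. Chek1 had 1.48, 2.01, 2.44 and 1.38 CPM in knockdown-morphine, 1.35, 1.45, 1.08 and 1.20 in scramble-morphine and 1.11, 1.35, 0.831 and 1.37 in scramble-saline libraries. Replicates 2 and 3 of the knockdown-morphine group are the high ones, scramble-morphine replicate 3 lies inside the range of that group, and all scramble-saline libraries lie below that range. The fitted log2 difference was 0.52 against scramble-morphine (-0.02 to 1.05; edgeR adjusted p = 0.429) and 0.65 against scramble-saline (0.11 to 1.18; edgeR adjusted p = 0.441), at 45 to 134 counts per library. Chek2 had 1.71, 0.920, 1.67 and 0.785 CPM in knockdown-morphine, 1.40, 0.813, 0.506 and 1.26 in scramble-morphine and 1.66, 0.537, 0.527 and 1.09 in scramble-saline libraries. The ranges of the groups overlap (0.34 in knockdown-morphine against scramble-morphine, -0.56 to 1.25).

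The phosphatases held back by these kinases did not pass the test. Cdc25a had 6.66, 6.27, 5.36 and 5.54 CPM in knockdown-morphine, 5.98, 6.54, 5.06 and 6.33 in scramble-morphine and 5.07, 6.90, 5.59 and 5.82 in scramble-saline libraries. Cdc25b had 19.7, 20.3, 22.6 and 20.7 CPM in knockdown-morphine, 21.2, 19.1, 21.9 and 16.5 in scramble-morphine and 17.7, 17.9, 24.8 and 18.2 in scramble-saline libraries. Scramble-saline replicate 4 is the high library of Cdc25b, and the groups overlap for both genes, with -0.01 (-0.31 to 0.29) for Cdc25a and 0.09 (-0.17 to 0.34) for Cdc25b between knockdown-morphine and scramble-morphine libraries. Wee1, the kinase that restrains entry into mitosis, differed by 0.01 (-0.19 to 0.20).

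At break ends and on the chromatin around them, H2afx encodes the histone that is phosphorylated beside breaks, Mdc1 reads that mark, Rnf8 and Rnf168 add ubiquitin, and Trp53bp1 binds the modified chromatin and favours end joining. Trp53bp1 had 127 to 143 CPM in knockdown-morphine and 121 to 149 in scramble-morphine libraries, ranges that overlap (0.03, -0.12 to 0.18). Rnf168 differed by -0.09 (-0.24 to 0.06), Mdc1 by 0.09 (-0.12 to 0.29), H2afx by 0.12 (-0.17 to 0.42) and Rnf8 by -0.18 (-0.49 to 0.12).

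Genes of homologous recombination and crosslink repair were the lowest role, with Fancd2 the most abundant at 3.93 TPM and Brca1 the least. FANCD2 and FANCI form the pair modified in crosslink repair, FANCA belongs to the core complex that modifies them, and PALB2 joins BRCA1 to BRCA2. Of the 6, 5 stood above 0 in knockdown-morphine against scramble-morphine libraries, with wide intervals: Brca1 0.20 (-0.44 to 0.84), Palb2 0.39 (-0.27 to 1.06), Fanca 0.17 (-0.43 to 0.76), Fanci 0.28 (-0.55 to 1.12) and Brca2 0.06 (-0.21 to 0.32). Fancd2 stood at -0.27 (-0.64 to 0.10). The median of the dividing-cell markers in the same comparison was 1.06, and that of the 26 replication genes among the further lists below was 0.04. The part of dividing cells in these values was not tested. In end joining, Xrcc6, the smaller Ku subunit, differed by -0.09 (-0.37 to 0.19), and Parp1 by 0.09 (-0.06 to 0.24).

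Trp53, which encodes p53, stood at 41.2 TPM and Mdm2, the ligase that degrades p53 and is itself a p53 target, at 40.6 TPM. Between knockdown-morphine and scramble-morphine libraries Trp53 differed by -0.14 (-0.32 to 0.03) and Mdm2 by 0.11 (-0.05 to 0.27). Of the 8 further p53 targets, 2 stood above 0 and 6 below. Cdkn1a, the inhibitor p21 that arrests the cell cycle, ranged from 24.9 to 28.5 CPM in knockdown-morphine and from 18.7 to 29.6 CPM in scramble-morphine libraries (0.24, -0.02 to 0.50). Polk, a translesion polymerase, differed by 0.18 (-0.08 to 0.44). The damage recognition genes Ddb2 and Xpc differed by -0.01 (-0.30 to 0.28) and -0.03 (-0.19 to 0.14), the stress gene Gadd45a by -0.11 (-0.53 to 0.31), the cell death gene Bbc3 by -0.08 (-0.49 to 0.34) and Ccng1 by -0.09 (-0.28 to 0.09).

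In scramble-morphine against scramble-saline libraries, the comparison that asks what morphine left after extinction, no gene passed edgeR's adjusted threshold (0% of genes). The 49 genes had a median of 0.01 (all genes tested: 0.00), 27 above 0 and 22 below, and ranged from -0.70 to 0.30. At an unadjusted p under 0.05 stood 1 of 49, 2.04%, against 3.48% of all genes, and 1, Rad1, had groups without overlap, against 3.32%. Leaving out 1 library gave 1 to 3 members at that p, against 2.55 to 4.25% of all genes. The 3 members, or 6.12%, came without scramble-saline replicate 5, against 4.25% of all genes. DESeq2 called 0.0182% and limma voom 0% of genes, with 0 members each. The interval lay within 1.5-fold for 39 of 49, 79.6%, against 56.2% of all genes and 77.2% of the other DNA damage response genes.

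The member with the smallest p was Ccng1, cyclin G1, which recruits a phosphatase to MDM2. It had 70.2, 76.2, 75.6 and 78.2 CPM in knockdown-morphine, 74.3, 78.1, 71.8 and 96.0 in scramble-morphine and 73.3, 65.4, 59.8 and 69.3 in scramble-saline libraries. Scramble-morphine replicate 5 is the highest of all, and scramble-saline replicate 2 lies inside the scramble-morphine range. Scramble-morphine minus scramble-saline was 0.26 (SE 0.09, 95% interval 0.07 to 0.45; edgeR adjusted p = 0.999). Without scramble-morphine replicate 5, Ccng1 left the members at an unadjusted p under 0.05 in edgeR. Fanci was then the 1 member, against 2.68% of all genes. With the ribosomal RNA share in the model the members were Fanci and Fanca, against 3.52% of all genes. The next smallest p-values were those of Wee1 at 0.19 (-0.01 to 0.38), Rnf8 at 0.26 (-0.04 to 0.57), Rad50 at 0.15 (-0.02 to 0.33) and Fanci at -0.70 (-1.53 to 0.13), all with an adjusted p of 0.999 in edgeR. Of the genes of homologous recombination and crosslink repair, 1 stood above 0 and 5 below in this comparison. Rad1 had 6.83, 6.38, 6.48 and 7.17 CPM in scramble-morphine and 6.24, 6.38, 6.09 and 6.03 in scramble-saline libraries, groups that meet at 6.38 CPM (0.12, -0.14 to 0.38).

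In knockdown-morphine against scramble-saline libraries, 3 genes passed edgeR's adjusted threshold, or 0.0137% of those tested, and none of them is among the 49. These groups differ in both virus and drug, so a difference between them cannot be assigned to either. The members had a median of 0.03 (all genes tested: 0.00), 26 above 0 and 23 below, and ranged from -0.42 to 0.65. At an unadjusted p under 0.05 stood 4 of 49, 8.16%, against 9.35% of all genes. The 4 were Phlda3, Chek1, Fancd2 and Wee1. The count of members was 8, or 16.3%, without knockdown-morphine replicate 5, against 15.2% of all genes. It was 2 without knockdown-morphine replicate 2 or scramble-saline replicate 5, against 10.6 and 7.64% of all genes. Without knockdown-morphine replicate 3 or scramble-saline replicate 4 it was 1, against 7.45 and 12.3% of all genes. Groups did not overlap for 5 of 49, 10.2%, against 4.34% of all genes: Chek1 and Wee1 stood higher in knockdown-morphine libraries, and Rad17, Tipin and Xrcc5 lower. The nearest knockdown-morphine and scramble-saline libraries had 1.38 and 1.37 CPM for Chek1 and 19.7 and 19.2 for Wee1. They had 11.3 and 11.7 CPM for Rad17, 8.11 and 8.17 for Tipin and 14.3 and 14.4 for Xrcc5. Several of these gaps are narrow, and Rad17, Tipin and Xrcc5 had an edgeR unadjusted p over 0.05. DESeq2 called 0.831% of genes and limma voom 0%, with 0 members each; DESeq2 gave an adjusted p for 48 of the 49. The interval lay within 1.5-fold for 39 of 49, 79.6%, against 53.5% of all genes and 75.7% of the other DNA damage response genes.

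Wee1 had 19.7, 21.7, 23.8 and 19.8 CPM in knockdown-morphine libraries, 18.9, 20.6, 21 and 24.1 in scramble-morphine and 18.1, 19.0, 18.1 and 19.2 in scramble-saline libraries. Both morphine groups reach above the saline libraries, which are close together (knockdown-morphine minus scramble-saline 0.19, SE 0.09; edgeR adjusted p = 0.533). Fancd2 had 6.39, 5.42, 4.69 and 6.42 CPM in knockdown-morphine, 7.07, 6.76, 8.33 and 5.58 in scramble-morphine and 5.94, 6.62, 8.69 and 9.29 in scramble-saline libraries. Replicates 4 and 5 of the scramble-saline group are the high ones, and the groups overlap (-0.41, SE 0.17, 95% interval -0.78 to -0.04; edgeR adjusted p = 0.482). All 5 checkpoint kinases and cell cycle targets stood above 0 in this comparison, with a median of 0.19. The median of the dividing-cell markers was 0.62, and several of these markers were at 0 in a library. Of the 6 genes of homologous recombination and crosslink repair, 3 stood above 0 and 3 below, with a median of -0.09. The 26 replication genes among the further lists below had a median of 0.01. The part of dividing cells in these values was not tested.

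**Figure D4:**
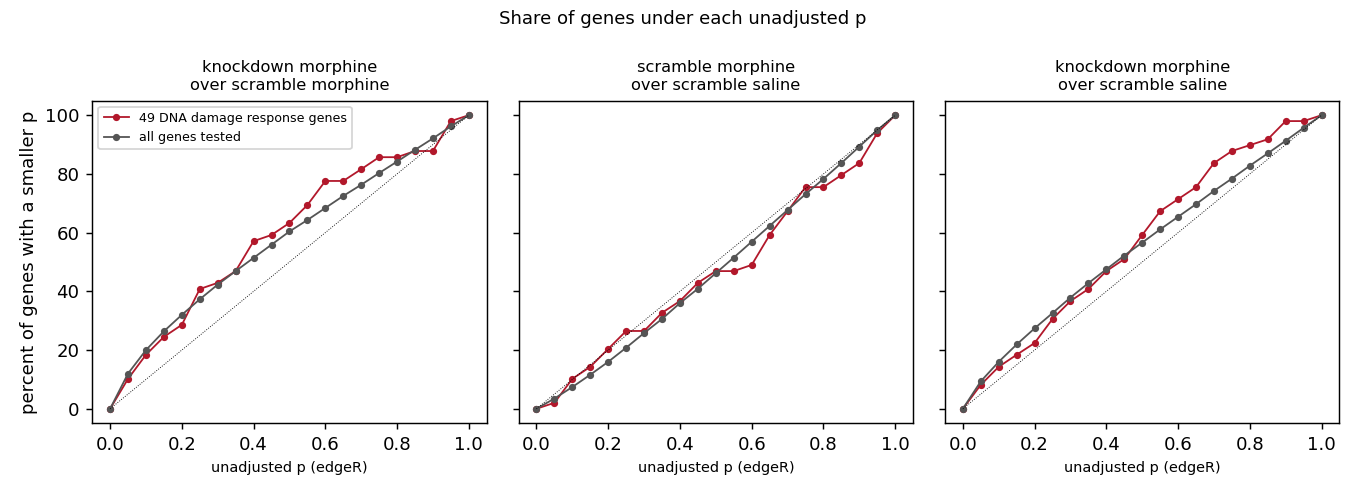
Percent of genes with an unadjusted p (edgeR) under each value from 0 to 1, for the 49 genes and for all genes tested, in the 3 comparisons; the dotted line is an even spread of p-values. At 0.05 the 49 genes stood at 10.2, 2.04 and 8.16% and all genes at 12, 3.48 and 9.35% from left to right, and the curves run close together.

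The wider pathway was read from 11 further lists, which hold 189 tested genes of homologous recombination, the Fanconi anaemia core, end joining, excision and mismatch repair, translesion synthesis, replication, p53 regulation and checkpoint signalling. None of the 189 passed edgeR's adjusted threshold in any comparison. At an unadjusted p under 0.05 stood 21, 6 and 17 of them, or 11.1, 3.17 and 8.99%, in knockdown-morphine against scramble-morphine, scramble-morphine against scramble-saline and knockdown-morphine against scramble-saline libraries, close to the shares of all genes given above.

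In knockdown-morphine against scramble-morphine libraries, the smallest p of the 189 was that of Plk2, a p53 target and kinase of synaptic plasticity. Plk2 had 136, 165, 147 and 189 CPM in knockdown-morphine, 201, 206, 219 and 206 in scramble-morphine and 203, 220, 171 and 210 in scramble-saline libraries. Knockdown-morphine libraries all lie below scramble-morphine libraries (-0.39, SE 0.09, 95% interval -0.59 to -0.18, edgeR adjusted p = 0.259). Its adjusted p was 0.0345 in DESeq2 and 0.0216 in edgeR without knockdown-morphine replicate 5, a fit in which 375 genes passed. Among the 22 alternatives, run with edgeR, DESeq2 or limma voom, the highest adjusted p of Plk2 in this comparison was 0.941. Cdc45, part of the replicative helicase, had 1.52, 2.24, 1.71 and 1.68 CPM in knockdown-morphine, 0.976, 1.0, 1.08 and 0.958 in scramble-morphine and 1.67, 1.73, 1.55 and 1.26 in scramble-saline libraries. It is the scramble-morphine libraries that stand low, below both other groups. Knockdown-morphine minus scramble-morphine was 0.83 (SE 0.21, edgeR adjusted p = 0.264 and DESeq2 adjusted p = 0.0472), and its highest adjusted p among the same alternatives was 0.941. Scramble-morphine minus scramble-saline was -0.63 (SE 0.21, edgeR adjusted p = 0.999).

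The end joining ligase gene Lig4 had 8.81, 10.3, 9.65 and 11.9 CPM in knockdown-morphine, 12.8, 13.7, 16.5 and 14.1 in scramble-morphine and 12.5, 11.9, 8.87 and 13.6 in scramble-saline libraries (knockdown-morphine minus scramble-morphine -0.49, edgeR adjusted p = 0.271). The mismatch repair gene Mlh3 had 21.1, 24.2, 21.6 and 26.4 CPM in knockdown-morphine, 29.4, 28.8, 30.5 and 28.3 in scramble-morphine and 27.1, 26.4, 21.9 and 30.3 in scramble-saline libraries (-0.32, edgeR adjusted p = 0.289). For both genes the knockdown-morphine libraries lie below all scramble-morphine libraries and overlap the scramble-saline ones. The smallest p of each remaining list was that of Slx4 (0.21), Wdr48 (0.16), Gtf2h1 (-0.22), Polb (0.13), Smarcal1 (0.11), Hipk2 (0.32) and Cep164 (-0.23), with edgeR adjusted p-values of 0.334 to 0.574.

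In scramble-morphine against scramble-saline libraries, the smallest p of each list was that of Cdc45, given above, Xrcc3 (-0.21), Fancm (-0.26), Lig4 (0.29), Ercc8 (-0.15), Mutyh (0.40), Mlh3 (0.15), Rev1 (-0.10), Perp (0.73), Cop1 (0.14) and Brcc3 (-0.16), all with an adjusted p of 0.999 in edgeR. In knockdown-morphine against scramble-saline libraries it was that of Slx4 (0.17), Usp1 (0.14), Poll (0.39), Xpa (-0.21), Mutyh (0.46), Msh3 (-0.18), Smarcal1 (0.11), Rrm1 (0.27), Plk2 (-0.34), Cop1 (0.17) and Cep164 (-0.26). Of these, Poll, an end joining polymerase, Rrm1, the large subunit of ribonucleotide reductase, and Cop1, a ligase that acts on p53, had all knockdown-morphine libraries above all scramble-saline libraries, with edgeR adjusted p-values of 0.377, 0.369 and 0.442. Perp, a p53 target at cell junctions, stood at 6.03 ± 2.17 CPM in scramble-morphine and 3.65 ± 0.972 CPM in scramble-saline libraries (SD, n = 4 each), groups that overlap.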

How the data were processed

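What the authors deposited is 1 table of raw whole-number counts, with genes in rows and 12 libraries in columns. Poly(A) RNA was selected with oligo(dT) beads before paired-end sequencing of libraries whose second strand carried dUTP, per the labels' protocols. Named in the submitters' processing notes are edgeR, DESeq2, StringTie 1.3.4d, HISAT2 2.0.4, cutadapt 1.9 and the build mm10, with no roles given; how strand was used in counting is not given in the sources used here.

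Groups came from the treatment labels. The 49 genes, the 11 further lists and the tests were chosen with earlier results of these data known. The main test was edgeR 4.0.16 (R 4.3.3): filterByExpr (minimum 10 counts, 21958 genes kept), TMM, a robust quasi-likelihood fit to all 12 libraries with 1 mean per group (9 residual degrees of freedom), two-sided, Benjamini-Hochberg adjustment over all genes at 0.05. Intervals are 95% intervals of the fitted log2 difference. CPM uses TMM-scaled library sizes, and TPM was computed from the counts with the longest coding transcript in GENCODE M21 over 21897 protein-coding genes.

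Named were Htr6, Atr, the 5 members with the smallest p per comparison and a mean of at least 1 CPM, the highest and lowest member of each role per length, paralogue pairs, and the gene with the smallest p of each further list; the other members are given by their fitted differences. Of 194 further genes listed, 1 was not matched and 192 remained after repeats, of which 189 were tested. Of the 49 members, 22 share exon bases with another gene, 9 of them over 10% with 1 gene. Alternatives were other scalings and filters, DESeq2 1.42.0, limma voom (limma 3.58.1), a fit to only the groups compared, a replicate block, the ribosomal RNA share as a covariate, and leaving out libraries in turn. Simulated counts with known changes were used to test the steps.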

Additional observations from a re-analysis of the deposited data

Results flagged for a closer look

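In 150 sets of 4 libraries, 1 for each of the 49 genes and Htr6 in each group, the highest or the lowest library was checked for a wide gap to the other 3, and 7 sets had one. Chance alone marks about 1 in 20 sets. Xrcc5 was at 9.95 CPM in knockdown-morphine replicate 1, against 13.9 to 14.3 in the other knockdown-morphine libraries, and Nbn was at 15.0 CPM in the same library, against 13.4 to 13.6. Atrip was at 29.8 CPM in knockdown-morphine replicate 3, against 33.0 to 33.5. Mdc1 was at 26.8 CPM in scramble-morphine replicate 3, against 22.3 to 23.0. In scramble-saline replicate 4, Clspn was at 0.128 CPM, against 0.450 to 0.503, and Cdc25b at 24.8 CPM, against 17.7 to 18.2. Brca1 was at 1.02 CPM in scramble-saline replicate 3, against 1.38 to 1.44. Of the 7, 0 lie in knockdown-morphine replicate 5, the library whose removal moved the counts of genes most.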

How the results depend on the processing

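The count of members past the adjusted threshold was 0 in each comparison under all 22 alternatives run. The count over all genes did move. For knockdown-morphine against scramble-morphine libraries it was 0, and became 2 with no filter, 164 with DESeq2, 2 with the replicate block and 0 to 375 with 1 library left out (375 without knockdown-morphine replicate 5). For scramble-morphine against scramble-saline it was 0, and became 4 with DESeq2, 1 with the compared groups alone and 1 with the replicate block. For knockdown-morphine against scramble-saline it was 3, and became 0 with library totals, limma voom, the replicate block or the ribosomal RNA covariate, 5 with no filter or the compared groups alone, 147 with DESeq2 and 0 to 55 with 1 library left out (55 without knockdown-morphine replicate 5). The causes were not tested. The labels do not say what a replicate number marks, and the numbers were not taken as a pairing, since not every same-numbered pair correlated over 0.1: deviations of 9 such pairs correlated at -0.0592 to 0.219, with 5 over 0.1, against -0.307 to 0.251 for 39 pairs with unlike numbers, with 2 over 0.1. As a hint from the data, 6 of 12 libraries correlated best with their own number. The median of the 49 genes ranged from -0.08 to 0.02, from -0.01 to 0.03 and from -0.03 to 0.04 in the 3 comparisons, and library totals alone shifted the median of all genes by -0.0665, 0.0203 and -0.0461. Of the fitted differences of named genes, 2 changed sign: Xrcc5 became 0.08 with the ribosomal RNA covariate, and Atr against scramble-saline was -0.11 to 0.04 with 1 library left out (0.04 without scramble-saline replicate 2). Past the threshold came 3 fits, of Plk2 and Cdc45 as given in the report, and the other 1183 kept direction and side. Genes under about 1 CPM, such as Clspn, are limited by their counts.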
